A study of Rattus norvegicus with 24 samples.

Results

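The expression of 10 genes of brain endothelium was followed across 4 structures of the rat: the tight junction genes Cldn5 and Ocln, the transporter genes Abcb1a, Slco1a4, Slco1c1 and Slc2a1, the VEGF receptor genes Kdr and Flt1, and the general endothelial genes Vwf and Pecam1. The genes were chosen by name, with earlier results of these data known. They are 10 of the 14217 genes named on the array, and 16 of its 31042 probe sets carried 1 of them as the only gene. A gene was read from its brightest probe set, and the other probe sets served as a check.

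Most brain capillaries are sealed. Their endothelial cells are joined by tight junctions, carry pumps that return lipophilic compounds to the blood and carriers that admit glucose, amino acids and hormones, and keep this state under Wnt signals from the surrounding tissue and in contact with pericytes and astrocyte end-feet. The capillaries of the neurohypophysis are an exception: they are fenestrated, their pores are spanned by diaphragms that contain the Plvap protein, and they let the secreted hormones vasopressin and oxytocin reach the blood.

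Messenger RNA was measured on 24 rat expression arrays, each hybridised with amplified RNA pooled from 5 male rats. The spontaneously hypertensive rat (SHR) gave 5 arrays of the pituitary's neurointermediate lobe (NIL), which lies outside the barrier, and 5 of the hypothalamic paraventricular nucleus (PVN). It also gave 4 arrays of another hypothalamic nucleus, the supraoptic (SON), and 5 of a brainstem region that drives sympathetic outflow, the rostral ventrolateral medulla (RVLM). From the normotensive Wistar-Kyoto rat (WKY) there were 5 arrays of the RVLM. Ages were 10 to 13 weeks, or 10 to 12 weeks for 1 NIL array, and no group received a treatment per the labels. Each array was described as an independent biological replicate, but nothing in the labels says whether the structures came from different rats. WKY tissue other than the RVLM was not analysed here, so structures were compared within SHR and strains within the RVLM.

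Values are deposited intensities, a linear probe set signal, given as mean ± SD over arrays. Each array had a 2% trimmed mean of about 99.6 to 99.8. Differences are on the log2 scale after shifting the arrays to a common median, with the standard error (SE) of the limma fit and a p-value adjusted by Benjamini-Hochberg over 18625 probe sets. A gene is called when its adjusted p is under 0.05. Of 4 tested markers of melanotrophs, the main cells of the intermediate lobe, all 4 were higher in the NIL than in each brain structure. The filter on low values used means that included the NIL arrays, so it favoured markers bright in the NIL. The count is therefore not read as a result. The summed level of the 5 markers on the array was 2869 to 3925 in the NIL and at most 306 elsewhere. PVN array 3 stood apart: its mean rank correlation was 0.912 with the other PVN arrays and 0.936 with the SON arrays, and results that rest on the PVN are given with and without it where a call changes.

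Promoter sequences are shown from RefSeq for the 3 barrier genes that were called lower in the NIL in all 3 comparisons, and for Kdr, which went the other way. Of the 10 genes 7 matched the table by symbol (Cldn5, Abcb1a, Slco1a4, Slc2a1, Kdr, Flt1 and Ocln), and Vwf, Slco1c1 and Pecam1 did not. Each sequence runs from 250 bases before to 50 bases after the annotated gene start on the gene's own strand, and capitals mark the motif matches described after them.
Cldn5: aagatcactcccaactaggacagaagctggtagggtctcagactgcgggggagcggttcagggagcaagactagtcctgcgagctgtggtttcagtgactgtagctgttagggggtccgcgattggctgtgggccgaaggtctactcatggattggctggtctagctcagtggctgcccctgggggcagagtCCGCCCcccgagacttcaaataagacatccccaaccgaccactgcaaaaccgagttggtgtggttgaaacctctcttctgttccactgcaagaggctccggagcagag
Abcb1a: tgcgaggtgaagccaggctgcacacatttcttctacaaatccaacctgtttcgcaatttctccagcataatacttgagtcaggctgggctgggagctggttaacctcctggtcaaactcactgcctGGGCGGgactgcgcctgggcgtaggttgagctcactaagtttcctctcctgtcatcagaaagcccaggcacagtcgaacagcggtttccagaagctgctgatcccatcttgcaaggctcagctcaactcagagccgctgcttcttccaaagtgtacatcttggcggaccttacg
Slco1a4: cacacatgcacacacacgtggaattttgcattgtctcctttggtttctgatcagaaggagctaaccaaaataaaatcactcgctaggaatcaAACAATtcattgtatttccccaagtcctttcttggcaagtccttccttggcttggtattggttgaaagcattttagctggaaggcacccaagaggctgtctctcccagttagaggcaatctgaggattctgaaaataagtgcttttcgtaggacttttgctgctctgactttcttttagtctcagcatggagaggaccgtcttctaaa
Kdr: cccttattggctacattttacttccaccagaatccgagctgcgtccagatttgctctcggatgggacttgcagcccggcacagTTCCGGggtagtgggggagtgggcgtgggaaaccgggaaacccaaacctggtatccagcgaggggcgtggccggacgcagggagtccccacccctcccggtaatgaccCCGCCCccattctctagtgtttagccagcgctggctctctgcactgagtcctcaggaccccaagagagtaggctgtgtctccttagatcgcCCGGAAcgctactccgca
In the rat assembly GRCr8 these windows lie at chr11:95718549-95718848 on the minus strand (Cldn5), chr4:26397599-26397898 on the minus strand (Abcb1a), chr4:176495797-176496096 on the minus strand (Slco1a4) and chr14:32571813-32572112 on the plus strand (Kdr). The 5 short motifs searched on both strands were the GC box GGGCGG, the TATA box TATAAA, the ETS core CCGGAA, the TCF/LEF core ATCAAAG and the SOX core AACAAT. Cldn5, Abcb1a and Kdr each held 1 GC box, which 33.1% of 33469 promoters of the same length also hold. Kdr held 2 ETS cores (15% of promoters hold at least 1) and Slco1a4 held 1 SOX core (11.7%). None of the 7 windows held the TCF/LEF letters, which 3.63% of promoters hold. A match describes the letters of the window and was not tested as a binding site.

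Of the 10 genes, 8 were called between NIL and PVN (3 higher and 5 lower in the NIL), against 57.1% of the 10596 genes tested, and 9 without PVN array 3. Between NIL and SON 7 were called (3 higher, 4 lower), against 51.2%, and between NIL and RVLM 9 (3 higher, 6 lower), against 67.8%. All 10 genes passed the filter on low values. The genes were few and were chosen with earlier results of these data known. The 3 counts are therefore not read as a result about the 10 genes. The lists given further on were chosen with the same knowledge. The 3 comparisons share the NIL arrays. In each of them Cldn5, Abcb1a, Vwf and Slco1a4 were lower in the NIL and Kdr and Ocln higher, so the genes did not move as one group. The median difference of the 10 genes was -0.47, -0.12 and -0.50 against PVN, SON and RVLM, and that of all genes tested 0.03, 0.03 and 0.10. In RNA from whole tissue, fewer cells of a type and less RNA per cell cannot be told apart.

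**Figure D1:**
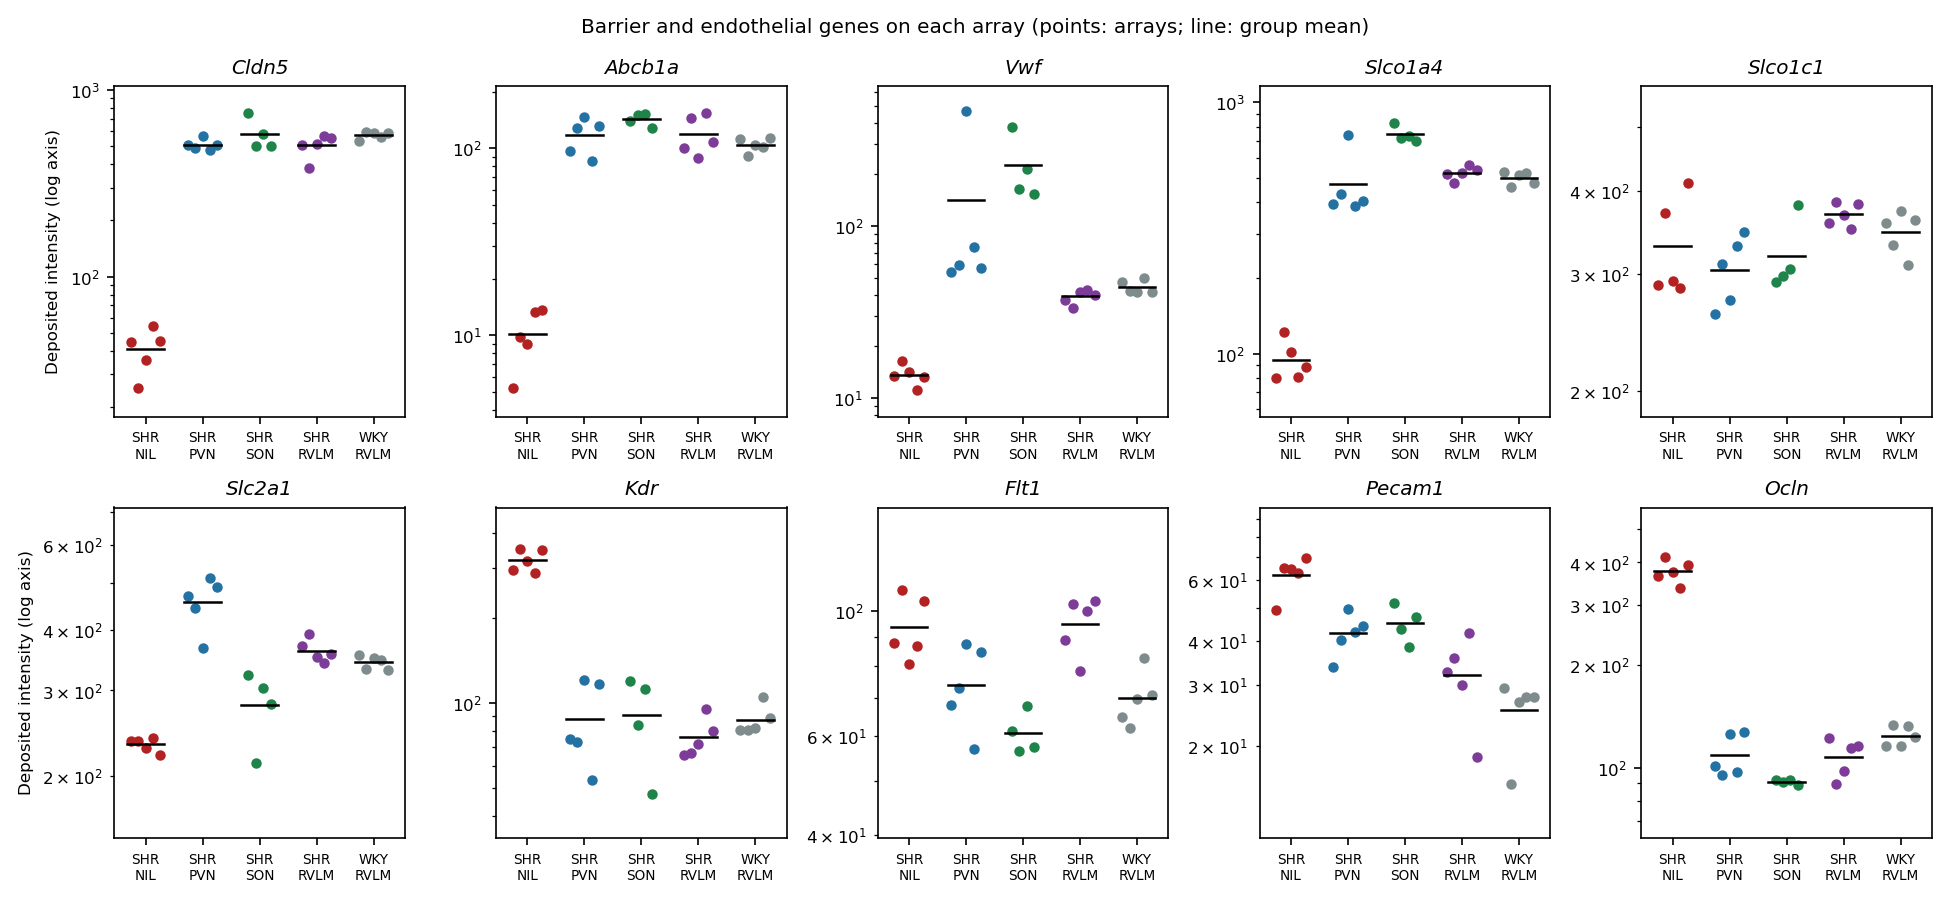
Deposited intensity (log axis, arbitrary units) of the 10 genes on each of the 24 arrays, 1 panel per gene, with points for arrays and lines for group means. Cldn5, Abcb1a, Vwf and Slco1a4 lie lowest on the NIL arrays, Kdr and Ocln lie highest there, and the NIL arrays of Slco1c1 overlap with every other group.

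Claudin-5, the main sealing claudin of brain endothelium, was far lower in the NIL than in each brain structure. Cldn5 read 44.7, 25.3, 35.7, 54.4 and 44.9 on the NIL arrays and 507, 491, 568, 476 and 504 on the PVN arrays. It read 750, 498, 583 and 498 in the SON and 508, 381, 514, 564 and 554 in the SHR RVLM. Every NIL array lay far under every brain array. The difference was -3.72 (SE 0.176, adjusted p = 7.65e-14) against PVN, -3.87 (SE 0.186, adjusted p = 1.45e-13) against SON and -3.75 (SE 0.176, adjusted p = 3.45e-14) against RVLM, or 13.2-, 14.6- and 13.4-fold lower in the NIL. Among the brain structures no difference was called (adjusted p 0.629 to 0.926), and the intervals of the 3 differences lay within -0.53 to 0.39.

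Occludin, another tight junction protein that epithelia also carry, went the other way. Ocln read 366, 414, 375, 337 and 393 in the NIL, 101, 95, 126, 97.3 and 127 in the PVN, 92.4, 91.1, 92.4 and 88.8 in the SON and 122, 89.6, 98.2, 114 and 116 in the SHR RVLM. The NIL arrays did not overlap with any brain array. The difference was 1.76 (SE 0.125, adjusted p = 6.93e-11) against PVN, 2.03 (SE 0.132, adjusted p = 2.2e-11) against SON and 1.72 (SE 0.125, adjusted p = 5.8e-11) against RVLM. Another, dimmer probe set of Ocln gave 1.79, 1.81 and 2.12, all called. The 2 tight junction genes thus differed in opposite directions in the same tissue.

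Abcb1a encodes the efflux pump P-glycoprotein. It read 5.23, 9.74, 8.96, 13.3 and 13.7 in the NIL, values near the lower end of these arrays, where its median stood at the 18.9th percentile of all probe sets. In the brain it read 96.7, 128, 148, 85.2 and 131 (PVN), 140, 151, 153 and 129 (SON) and 100, 145, 89.3, 154 and 108 (SHR RVLM). The groups did not overlap, and the NIL was lower, with fitted differences of -3.62 against PVN (SE 0.22, adjusted p = 5.02e-12), -3.90 against SON (SE 0.233, adjusted p = 5.28e-12) and -3.69 against RVLM (SE 0.22, adjusted p = 2.17e-12). Its other probe set gave -2.47, -3.10 and -2.80, all called. The annotation has 1 more probe set that names both Abcb1a and its neighbour Abcb1b, which was left out. Detection calls were not used here, and whether the NIL readings of Abcb1a lay above background was not tested, so no fold is given and these sizes are not ranked against those of other genes. The same limit holds for Vwf and, among the genes named further on, for those with readings as low, such as Pgf in the NIL and Plvap in the SON.

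The 2 organic anion transporters differed from each other. Slco1a4, which carries bile acids, steroid conjugates and drugs, read 80, 122, 101, 80.3 and 88.8 in the NIL, 392, 431, 741, 387 and 404 in the PVN, 829, 722, 735 and 699 in the SON and 516, 477, 522, 561 and 538 in the SHR RVLM. All NIL arrays were lower than all brain arrays, by 5.03-fold against PVN (-2.33, SE 0.168, adjusted p = 9.08e-11), 8.06-fold against SON (-3.01, SE 0.178, adjusted p = 4.42e-12) and 5.97-fold against RVLM (-2.58, SE 0.168, adjusted p = 9.51e-12). Another probe set of Slco1a4 gave -2.15, -3.17 and -2.78, all called, and without PVN array 3 the difference against PVN was -2.14. Slco1c1, the thyroxine transporter of the barrier, read 289, 371, 293, 286 and 411 in the NIL, 261, 310, 274, 330 and 347 in the PVN, 292, 298, 305 and 381 in the SON and 358, 385, 368, 350 and 382 in the SHR RVLM. The NIL values overlapped with those of each brain structure. The differences of Slco1c1 were 0.07 against PVN (95% interval -0.15 to 0.29, adjusted p = 0.616), 0.03 against SON (-0.21 to 0.26, adjusted p = 0.857) and -0.27 against RVLM (-0.49 to -0.05, adjusted p = 0.0316). The last call ended with values as deposited (-0.18, adjusted p = 0.153), with quantile normalization (-0.16, adjusted p = 0.221), and without NIL array 1, 3 or 4 or RVLM array 3 or 5 (adjusted p 0.0563 to 0.107).

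Slc2a1 encodes Glut1, the glucose carrier of barrier endothelium, which many other cells also make. It read 236, 236, 228, 239 and 221 in the NIL and 471, 445, 368, 512 and 491 in the PVN. In the SON it read 323, 212, 304 and 281, and in the SHR RVLM 371, 393, 351, 342 and 357. The NIL arrays lay under all PVN and RVLM arrays but overlapped with the SON, where array 2 was lower than any NIL array. The NIL difference was -1.01 against PVN (SE 0.107, adjusted p = 5.03e-08) and -0.74 against RVLM (SE 0.107, adjusted p = 3.13e-06), or 2.02- and 1.66-fold lower. Against SON the difference was -0.27 (95% interval -0.50 to -0.03, adjusted p = 0.0588), which was called with quantile normalization (adjusted p = 0.0427) and without SON array 2 (-0.39, adjusted p = 0.00433).

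Kdr, the main signalling receptor for VEGF on endothelium, was higher in the NIL. It read 295, 351, 319, 288 and 349 there, 74.7, 73.1, 121, 53.7 and 117 in the PVN, 120, 83.5, 112 and 47.6 in the SON and 65.8, 66.5, 71.9, 95.7 and 80 in the SHR RVLM. The lowest NIL array exceeded the highest brain array more than 2-fold. The difference was 1.89 against PVN (SE 0.239, adjusted p = 6.79e-07), 1.89 against SON (SE 0.253, adjusted p = 1.98e-06) and 2.00 against RVLM (SE 0.239, adjusted p = 1.85e-07), or 3.7-, 3.7- and 3.99-fold. Another probe set of Kdr was dim, with group means of 5.43 to 10.8, lay under the filter and was not tested.

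Flt1, the other VEGF receptor, which also binds placental growth factor, showed smaller differences. It read 87.8, 109, 80.4, 86.7 and 104 in the NIL, 68.1, 72.9, 87.3, 56.9 and 84.6 in the PVN, 61.2, 56.4, 67.9 and 57.3 in the SON and 88.9, 103, 78.2, 100 and 104 in the SHR RVLM. The NIL arrays overlapped with PVN and RVLM but not with SON. Against SON the NIL was higher by 0.61 (SE 0.155, adjusted p = 0.00247). Against PVN the difference was 0.31 (adjusted p = 0.0792), which was called with values as deposited (0.35, adjusted p = 0.0292) and without PVN array 3 (0.39, adjusted p = 0.0262). Against RVLM it was -0.11 (95% interval -0.41 to 0.19, adjusted p = 0.513).

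The 2 general endothelial genes also differed from each other. Vwf, the clotting protein that endothelial cells store in granules, read 13.4, 16.4, 14.1, 11.1 and 13.3 in the NIL, 53.9, 59.3, 467, 75.5 and 57.4 in the PVN, 375, 165, 214 and 154 in the SON and 37.4, 33.6, 41.4, 42.5 and 39.9 in the SHR RVLM. All NIL arrays lay under all brain arrays, and PVN array 3 read above the SON arrays. The NIL difference of Vwf was -2.80 against PVN (SE 0.416, adjusted p = 6.24e-06), -3.98 against SON (SE 0.441, adjusted p = 1.25e-07) and -1.61 against RVLM (SE 0.416, adjusted p = 0.00177). Without PVN array 3 the difference of Vwf against PVN was -2.19 (adjusted p = 5.75e-09). Pecam1, an adhesion molecule at the contacts of all endothelium, read 49.3, 65.2, 64.6, 62.9 and 69.4 in the NIL, 33.8, 40.5, 49.6, 42.7 and 44.2 in the PVN, 51.5, 43.5, 38.5 and 47 in the SON and 32.7, 35.9, 30, 42.4 and 18.6 in the SHR RVLM. Apart from array 1, the NIL values of Pecam1 lay above all brain values. The difference was 0.52 against PVN (SE 0.179, adjusted p = 0.0167) and 0.91 against RVLM (SE 0.179, adjusted p = 0.000116). Against SON it was 0.45 (95% interval 0.06 to 0.84, adjusted p = 0.0539) and was called in 5 alternatives, with adjusted p 0.0163 to 0.0492.

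**Figure D2:**
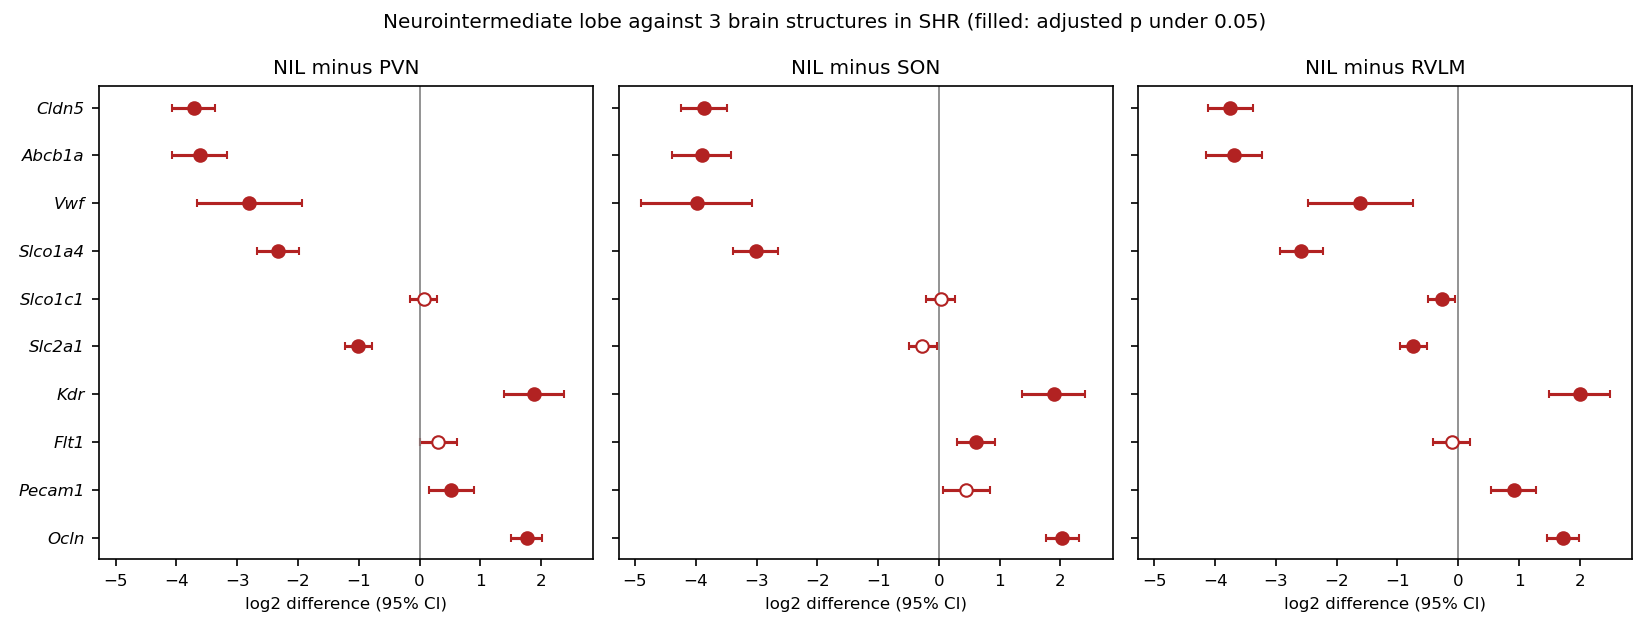
Log2 difference of NIL minus PVN, SON and RVLM for each of the 10 genes, with 95% intervals from the fit over 19 SHR arrays; filled points have an adjusted p under 0.05. Cldn5, Abcb1a, Vwf and Slco1a4 are filled and under 0 in each panel, Kdr and Ocln are filled and above 0, and Slco1c1 lies between -0.27 and 0.07. The NIL readings of Abcb1a and Vwf carry no test against background, so their sizes are not ranked.

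Cells other than endothelium also differed between the NIL and the brain. Of 8 tested astrocyte markers all 8 were lower in the NIL in each comparison, with a summed level over 10 markers of 3174 to 3812 in the NIL, 12724 to 17579 in the PVN, 17239 to 20136 in the SON and 16554 to 20146 in the SHR RVLM. Of the 10 markers, Slc1a2 averaged 2.18 in the NIL and 24.1 to 59.4 in the SHR brain structures. Whether its NIL readings lay above background was not tested. Of 4 tested epithelial markers all 4 were higher in the NIL, with sums over 8 markers of 2422 to 3165 against at most 516 on any brain array, and Epcam averaged 1243 in the NIL and 5.46 to 14 in the SHR brain structures. Of 4 tested anterior pituitary markers all 4 were higher, with sums over 6 markers of 11605, 16521, 5703, 5604 and 2802 on NIL arrays 1 to 5 and at most 199 elsewhere, so the level of that list differed between the NIL pools. NIL array 2, which had the highest of these sums, was the highest NIL array for 5 of the 10 genes. Array 5, which had the lowest sum, was the highest for 3. The filter on low values used means that included the NIL arrays. A marker near the bottom of the scale in the brain could therefore be tested only if it was bright in the NIL. In the fit of the RVLM arrays alone, 1 of the 8 epithelial and 1 of the 6 anterior pituitary markers passed the filter. The counts of these lists called higher were thus partly set by the filter and are not read as a result. The sums hold all markers on the array. Of 5 tested oligodendrocyte markers all 5 were lower in the NIL in each comparison, with sums over 6 markers of 660 to 761 against at least 3190 on any brain array, and of 8 neuronal markers 7, 6 and 7 were lower against PVN, SON and RVLM, with sums of 4346 to 4894 against at least 8286. Of 4 tested blood markers 2, 2 and 3 were higher, with sums over 5 markers of 2976 to 4874 in the NIL and at most 1718 elsewhere. Of 7 tested meningeal markers 6, 1 and 6 were higher, with sums over 8 markers of 5826 to 7244 in the NIL, 483 to 8922 in the PVN, 6681 to 10386 in the SON and 2511 to 3948 in the SHR RVLM. The sums of 26 general endothelial genes overlapped, at 2557 to 2950 in the NIL, 2508 to 3305 in the PVN, 3072 to 3848 in the SON and 2758 to 3010 in the SHR RVLM, except that all SON arrays lay above the NIL and RVLM arrays. The part of the other cell types in the differences of the 10 genes was not tested.

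Other junction genes were mostly higher in the NIL. Of 17 tested (of 23 listed), 12 were higher and 1 lower against PVN, 10 and 1 against SON and 10 and 3 against RVLM, with medians of 0.66, 0.69 and 0.59. Of all genes tested, 29.8% were higher and 27.4% lower against PVN, 26.5% and 24.7% against SON, and 37.6% and 30.2% against RVLM. Among the genes that passed the filter, the largest differences shared by all 3 comparisons were those of F11r, a junctional adhesion molecule of epithelium and endothelium (1.76, 1.95 and 1.84), Cldn10 (1.89, 2.13 and 1.41) and Jam2 (1.48, 1.45 and 1.2). F11r stood at 259 ± 31.5 in the NIL and 66.6 to 74.7 in the SHR brain structures. Cldn3, a claudin under the filter that was named after its values were seen, averaged 98.7 ± 21.3 in the NIL and 6.35 to 13.5 in the SHR brain structures. Tjp1, the scaffold ZO-1 that tethers claudins, was called against RVLM alone (-0.66, SE 0.129, adjusted p = 0.000114), with 0.03 and 0.06 against PVN and SON. Several of the junction genes are also epithelial, and the part of epithelial cells in their differences was not tested. Cdh5 was not analysed here, since no probe set named it alone.

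Other barrier transport genes were more often lower than higher. Of 19 tested (of 23 listed), 11 were lower and 5 higher against PVN, 11 and 5 against SON and 11 and 6 against RVLM. The medians of the 19 were -0.57, -0.88 and -0.67. Of all genes tested, 27.4% were lower and 29.8% higher against PVN, 24.7% and 26.5% against SON, and 30.2% and 37.6% against RVLM. The higher counts lie near these shares and are not read as a result about the list. Abcg2, another efflux pump of the barrier, averaged 22.5 ± 6.81 (SD, n = 5) in the NIL against 137 ± 31.3 in the PVN, 166 ± 18 in the SON and 195 ± 36.3 in the SHR RVLM, with differences of -2.67, -2.95 and -3.24 (adjusted p = 2.5e-10, 1.64e-10 and 5.44e-12). Slc22a8, an organic anion transporter, was at -1.90, -2.67 and -1.51, and Slc7a5, the large neutral amino acid carrier, at -1.70, -1.64 and -1.22, all called. Slc6a6, the taurine transporter, stood opposite, at 2463 ± 140 in the NIL and 259 to 461 in the SHR brain means (3.23, 3.24 and 2.33, all called). Mfsd2a, a lipid carrier that restrains transcytosis in barrier endothelium, was higher than in PVN (0.55, adjusted p = 0.00343) and SON (0.43, adjusted p = 0.0281) and lower than in RVLM (-0.63, adjusted p = 0.000902). Abcb1b was not analysed here.

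Of 15 tested genes of the Wnt pathway that maintains the barrier (22 listed), 6 were lower in each comparison. Against PVN, SON and RVLM 2, 1 and 2 were higher, and the medians of the 15 were -0.29, -0.51 and -0.10. Of all genes tested, 27.4%, 24.7% and 30.2% were lower in these comparisons and 29.8%, 26.5% and 37.6% higher. With 15 genes tested, the counts beside these shares are not read as a result about the list. Ndp, the ligand norrin, averaged 20.4 ± 4.08 in the NIL and 191 ± 28.4, 130 ± 13.5 and 245 ± 9.47 in PVN, SON and RVLM, with differences of -3.28, -2.71 and -3.71 (adjusted p = 1.27e-13, 1.17e-11 and 8.59e-15). Lef1, a transcription factor through which beta-catenin acts, was at 26.8 ± 7.16 in the NIL and 104 to 114 in the brain (-2.14, -2.04 and -2.07, all called). Reck, which helps endothelial cells sense Wnt7 ligands, was higher in all 3 comparisons, at 570 ± 98.7 in the NIL and 69.5 to 173 in the brain (1.85, 1.90 and 2.98, all called). The receptor gene Fzd4 was called against RVLM alone (0.66, adjusted p = 0.0248), with 0.11 and 0.10 against PVN and SON.

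Among genes of permeable endothelium, Plvap and Igfbp5 were higher in the NIL and Cav2 lower. Of 15 tested (23 listed), 8 were higher and 3 lower against PVN, 6 and 4 against SON and 7 and 5 against RVLM, with medians of 0.34, 0.12 and 0.52. All genes tested had 29.8% higher and 27.4% lower against PVN, 26.5% and 24.7% against SON and 37.6% and 30.2% against RVLM. Apart from the higher count against PVN, the counts of the 15 genes lie near these shares and are not read as a result about the list. Plvap, the diaphragm protein, averaged 225 ± 16.4 in the NIL, 26.6 ± 18.6 in the PVN, 9.03 ± 1.97 in the SON and 57.7 ± 28.3 in the SHR RVLM. Its differences were 3.39 (SE 0.5, adjusted p = 5.65e-06), 4.65 (SE 0.531, adjusted p = 1.94e-07) and 2.12 (SE 0.5, adjusted p = 0.000804). Among the brain structures Plvap was higher in the RVLM than in the SON (2.54, adjusted p = 0.000537) and the PVN (1.28, adjusted p = 0.0429). Whether the SON readings of Plvap lay above background was not tested, so the sizes of its differences from the SON are not ranked against those of other genes. Igfbp5, a binding protein of insulin-like growth factors, was higher by 2.24, 2.20 and 3.72, and the caveolar gene Cav2 lower, at -1.50, -1.60 and -2.40, all called. Of the 5 genes of the list under the filter, Esm1, an endothelial proteoglycan, averaged 494 ± 88.3 in the NIL and 3.89 to 15.3 in the SHR brain structures, near the bottom of the scale. Fabp4, a fatty acid binding protein, stood opposite, at 2.37 ± 2.65 in the NIL and 55.6 ± 14.8 in the SHR RVLM. Both were named after their values were seen, and no difference is given for them. With no filter the list had 8 genes higher and 8 lower against RVLM, of 20 tested.

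The lists of general endothelial genes, of ligands and of mural genes each held genes called in both directions. Of 20 general endothelial genes tested, 9 were higher and 5 lower against PVN, 4 and 6 against SON and 8 and 5 against RVLM, with medians of 0.16, -0.10 and 0.30. Of all genes tested, 29.8% were higher and 27.4% lower against PVN, 26.5% and 24.7% against SON, and 37.6% and 30.2% against RVLM. Apart from the higher count against PVN, the general endothelial counts lie near these shares and are not read as a result about the list. Eng, a co-receptor of TGF-beta ligands (0.93, 0.75 and 1.15), and the transcription factor gene Ets1 (0.87, 0.75 and 1.08) were higher and the adhesion molecule gene Vcam1 lower (-1.11, -1.80 and -0.75), all called. The angiopoietin receptor gene Tek was called in none of the 3 (-0.12, -0.45 and -0.15), and Tie1 against RVLM alone (0.64, adjusted p = 0.00101). Of 14 VEGF and angiopoietin system genes tested, 3 were higher and 4 lower against PVN, 5 and 6 against SON and 4 and 6 against RVLM. The medians of the 14 were 0.03, -0.36 and -0.24. Beside the same shares of all genes, these counts are not read as a result about the list. Vegfa, the main ligand of Kdr, averaged 399 ± 67.8 in the NIL, 169 ± 59.2 in the PVN, 252 ± 29.3 in the SON and 153 ± 14 in the SHR RVLM (1.25, 0.64 and 1.29, all called). Pgf, a ligand of Flt1 and not of Kdr, averaged 4.94 ± 1.17 in the NIL and 68 ± 27.7, 41.1 ± 7.94 and 68.2 ± 25.8 in the brain structures (-3.74, -3.08 and -3.81, all called), and the co-receptor gene Nrp2 was lower too (-1.32, -0.88 and -1.03). Without PVN array 3 the counts of this list against PVN were 7 higher and 5 lower. Of 12 mural genes tested, 3 were higher and 2 lower against PVN, 1 and 4 against SON and 3 and 5 against RVLM. The medians of the 12 were -0.23, -0.37 and -0.38. Beside the same shares of all genes, the mural counts are not read as a result about the list either. Notch3 (-1.36, -1.01 and -1.48) and Vtn (-1.28, -3.04 and -0.89) were lower throughout, while the pericyte genes Pdgfrb (0.96) and Rgs5 (-0.59) were called against RVLM alone.

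**Figure D3:**
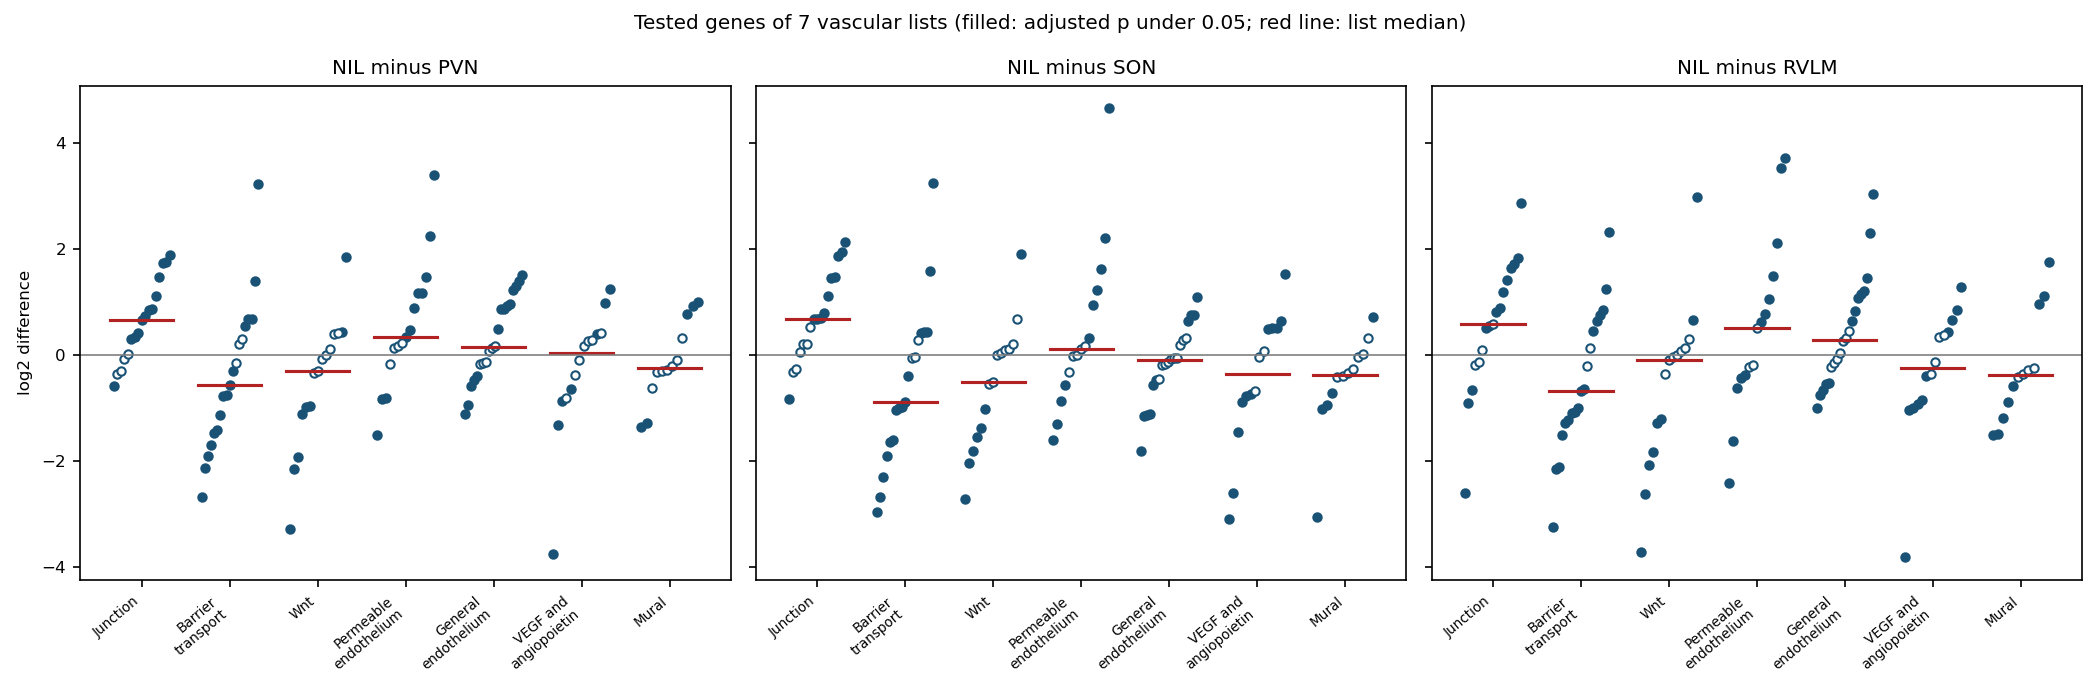
Log2 difference of the tested genes of 7 vascular lists in NIL minus PVN, SON and RVLM; each point is a gene, filled where its adjusted p is under 0.05, and red lines are list medians. Junction genes have medians of 0.59 to 0.69 and barrier transport genes medians of -0.88 to -0.57, and each list holds genes on both sides of 0.

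Among the 3 brain structures, fewer of the 10 genes and fewer of all genes were called than against the NIL. Between PVN and SON 2 were called, against 16.1% of the genes tested, between RVLM and PVN 4, against 45.6%, and between RVLM and SON 4, against 45.7%. The 3 counts lie near the shares of all genes and are not read as a result about the 10 genes. These comparisons also share arrays with each other and with the NIL comparisons. Cldn5, Abcb1a, Kdr, Pecam1 and Ocln were called in none of the 3, with differences of -0.46 to 0.31. Pecam1 was called without RVLM array 4 against PVN (-0.51, adjusted p = 0.0248) and in 5 alternatives against SON (-0.46 with all arrays, adjusted p 0.0156 to 0.0469 in those 5), and Ocln was called in 3 alternatives for RVLM minus SON (0.31 with all arrays, adjusted p 0.0144 to 0.0469 in those 3).

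Slc2a1 was highest in the PVN and lowest in the SON, 457 ± 55.8 against 280 ± 48.8 (PVN minus SON 0.75, SE 0.114, adjusted p = 0.00023). The RVLM, at 363 ± 20, was higher than the SON (0.47, SE 0.114, adjusted p = 0.00196). Its difference from the PVN (-0.28, adjusted p = 0.0417) lost its call with no filter, in the fit of these 2 groups alone and without any of 9 single arrays (adjusted p 0.0507 to 0.106). Slco1a4 ran the other way between PVN and SON (-0.68, SE 0.178, adjusted p = 0.0133). That call ended in the fit of the 2 groups alone (adjusted p = 0.0561), while the other probe set was also lower in the PVN (-1.02, adjusted p = 0.000184). For RVLM minus SON the difference of Slco1a4 was -0.43 (adjusted p = 0.0517) with groups that did not overlap, and it was called in 6 alternatives (adjusted p 0.00246 to 0.0455). For RVLM minus PVN it was 0.25 (adjusted p = 0.242), but 0.44 (adjusted p = 0.00693) without PVN array 3 and 0.63 (adjusted p = 0.00115) at the other probe set. Slco1c1 was higher in the RVLM than in the PVN (0.33, SE 0.107, adjusted p = 0.0142) and SON (0.30, SE 0.113, adjusted p = 0.0373), the latter lost with values as deposited (0.22, adjusted p = 0.123), with quantile normalization (0.20, adjusted p = 0.191), and without SON array 1, 2 or 3 or RVLM array 3, 4 or 5 (adjusted p 0.0519 to 0.0984). Flt1 was higher in the RVLM than in the SON (0.72, SE 0.155, adjusted p = 0.000696) and the PVN (0.42, SE 0.146, adjusted p = 0.0236), and the second of these calls ended in the fit of the 2 groups alone (adjusted p = 0.0606) and without PVN array 4 or RVLM array 4 or 5 (adjusted p 0.0557 to 0.0825). PVN minus SON of Flt1 was 0.30 (adjusted p = 0.206) and was called without PVN array 4 (0.43, adjusted p = 0.0389).

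Vwf separated the brain structures most. Its group means were 227 ± 102 in the SON, 143 ± 182 in the PVN and 39 ± 3.55 in the SHR RVLM, and RVLM minus SON was -2.37 (SE 0.441, adjusted p = 0.000164). RVLM minus PVN was -1.19 (SE 0.416, adjusted p = 0.0241), which was no longer called in the fit of the 2 groups alone (adjusted p = 0.0635) or without RVLM array 2 (adjusted p = 0.0504), and which was -0.59 (adjusted p = 0.0265) without PVN array 3. PVN minus SON was -1.19 (SE 0.441, adjusted p = 0.0739) with all arrays and -1.79 (adjusted p = 2.88e-06) without PVN array 3. That array was the highest PVN array for 8 of the 10 genes. It also had the highest summed levels of the PVN for 16 mural markers (2137 against 549 to 727), 8 meningeal markers (8922 against 483 to 669), 26 general endothelial genes (3305 against 2508 to 2797) and 6 oligodendrocyte markers (8049 against 3190 to 3904). SON array 1, the highest SON array for 7 of the 10 genes, had the highest SON sums of mural (1949 against 1193 to 1571) and meningeal markers (10386 against 6681 to 9541). The part of these cells in the Vwf differences was not tested.

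**Figure D4:**
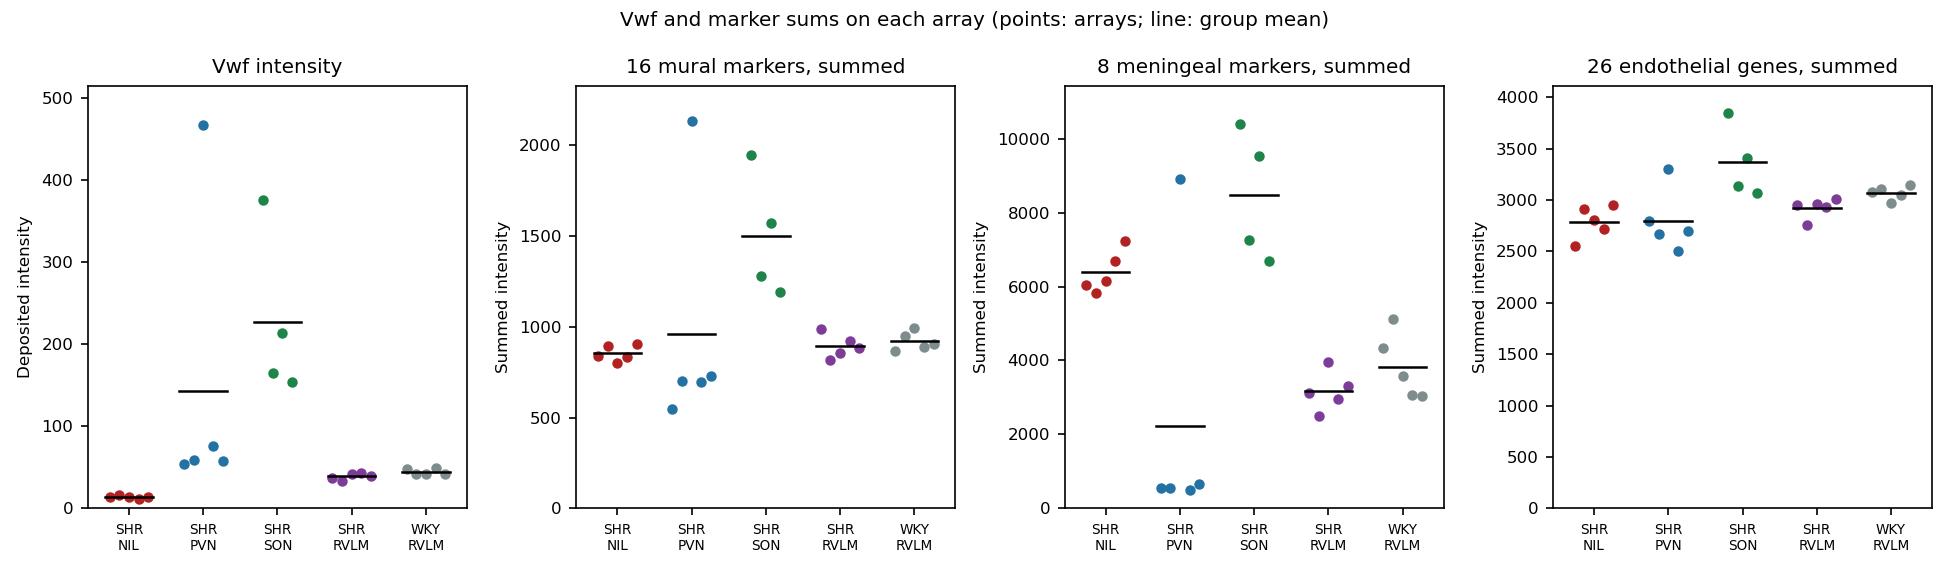
Intensity of Vwf and summed intensities of 16 mural markers, 8 meningeal markers and 26 general endothelial genes on each of the 24 arrays (linear axes from 0; points are arrays, lines are group means). PVN array 3 (Vwf 467, mural sum 2137, meningeal sum 8922) stands with or above the SON arrays in the first 3 panels, while the other 4 PVN arrays have Vwf between 53.9 and 75.5.

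The strain comparison asked whether these genes differ between the hypertensive and the normotensive rat in the RVLM. None of the 10 was called, against 1.41% of the 10400 genes tested (147 genes), and at an unadjusted p under 0.05 there was 1, Flt1, against 953 of all genes. Flt1 read 88.9, 103, 78.2, 100 and 104 in SHR and 64.7, 61.9, 69.8, 82.6 and 70.8 in WKY. The groups overlapped through SHR array 3 and WKY array 4. The difference was 0.41 (SE 0.128, 95% interval 0.14 to 0.68, adjusted p = 0.182), and 2 dimmer probe sets of Flt1, under the filter, gave -0.03 and -0.24.

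The other 9 genes had differences between -0.24 and 0.28, with group ranges that overlapped in each case. Cldn5 read 508, 381, 514, 564 and 554 in SHR and 530, 598, 587, 561 and 586 in WKY (-0.22, 95% interval -0.48 to 0.03, adjusted p = 0.614). Abcb1a, at 119 ± 28.6 and 105 ± 9.27, gave 0.13 (-0.17 to 0.43). Vwf, at 39 ± 3.55 and 44.4 ± 3.96, gave -0.22 (-0.53 to 0.10), Ocln, at 108 ± 13.5 and 124 ± 8.96, -0.24 (-0.50 to 0.01), and Kdr, at 76 ± 12.4 and 87.3 ± 10.5, -0.24 (-0.54 to 0.07). The transporter genes Slco1a4 (0.03, -0.17 to 0.24), Slco1c1 (0.06, -0.12 to 0.25) and Slc2a1 (0.05, -0.12 to 0.22) had the narrowest intervals. Pecam1 had the widest (0.28, -0.22 to 0.79), and its lowest WKY value, 15.5 on array 2, lay under the other 4 (26.8 to 29.4). In the 7 vascular lists 0 of 106 tested genes were called, against 1.41% of the 10400 genes tested. At an unadjusted p under 0.05 there were 8, against 953 of the 10400. Both counts lie near these shares and are not read as a result about the lists. Outside them, the choroid plexus gene Ttr was lower in SHR (-1.11, SE 0.271, adjusted p = 0.0485), 1 of 3 tested markers of that tissue, whose summed levels were 166 to 197 in SHR and 218 to 332 in WKY.

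**Figure D5:**
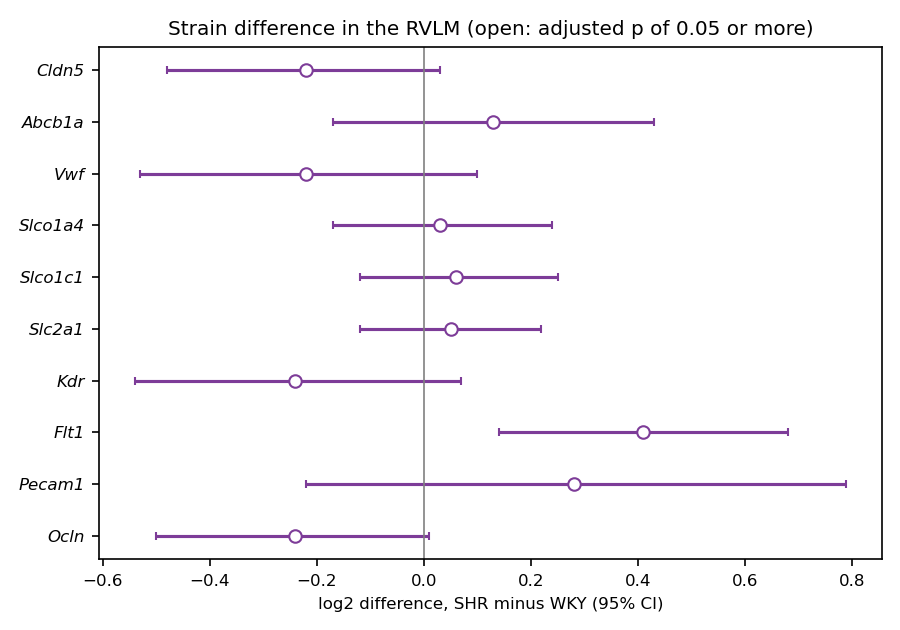
Log2 difference of SHR minus WKY in the RVLM for each of the 10 genes, with 95% intervals from the fit over 10 arrays; open points have an adjusted p of 0.05 or more. Flt1 (0.41) is the only gene whose interval does not include 0, and none passed the adjusted threshold.

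Across all 5 groups, the genes whose centred group means lay nearest to those of Cldn5 among 10572 genes were Folh1, Kcnip4, Arhgdig, Tubb2b and Abcb1a, with root mean square log2 differences of 0.111, 0.137, 0.151, 0.154 and 0.16. Abcb1a was thus the fifth nearest, and the other 4 were on none of the vascular lists. Nearest to Flt1 were Lrp6, a Wnt co-receptor gene (0.0501), and Ppp1r15b, Klf9, Ttc28 and Armc5 (0.0854 to 0.0939). These 5 group means per gene come from the same arrays, and the ranking describes only the shape over groups.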

How the data were processed

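RNA pooled from 5 rats per array was amplified and hybridised to 24 Affymetrix rat arrays. The authors deposited linear intensities from GCOS 1.2, per the submitters' processing notes; the sources used here do not give the scaling settings. After 57 control probe sets were left out, 31042 remained, of which 20826 carried 1 gene symbol, 436 several and 9780 none in the platform annotation. Values were taken as log2 with no pseudocount and shifted to a common array median, and probe sets with a mean at or under the 40th percentile were left out, leaving 18625. Structures were compared in 1 limma 3.58.1 fit (R 4.3.3, eBayes with trend) over 19 SHR arrays and strains over 10 RVLM arrays, with Benjamini-Hochberg adjustment. Intensities carry no read depth, so the number of arrays limits the precision.

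The 10 genes and the lists were chosen with earlier results of these data known. Beside the 10 genes the text names a set of always-named vascular genes and the 5 genes nearest in pattern to Cldn5 and to Flt1. From each vascular list it names at most 3 genes called in the same direction in all 3 NIL comparisons. Those were ranked by the smallest of their 3 differences. Slc1a2, Epcam, Ttr, Cldn3, Esm1 and Fabp4 were named outside these rules. Tested on simulated data over 18625 probe sets for NIL minus PVN, the fit recovered 69.5% of probe sets changed by 1 log2 unit. It recovered 19.6% of those changed by 0.5, and for the strain comparison 87.1% and 34.7%. Only 95 and 97 of the simulated probe sets had these changes for NIL minus PVN, and 93 and 95 for the strains. In the real data 57.1% of genes were called for NIL minus PVN, which sets another adjusted threshold. The recovered shares for NIL minus PVN therefore do not describe the real comparison. The alternatives were a pseudocount of 16, quantile normalization, values as deposited, no filter or a filter at the 60th percentile, other arrays in the fit, the mean of a gene's probe sets, a replicate block and leaving out each array. Counts of list genes without PVN array 3 were added after the data were seen. Pathway genes with no probe set of their own were not analysed here.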

Additional observations from a re-analysis of the deposited data

Results flagged for a closer look

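The highest or lowest array was compared with its nearest neighbour in each gene and group, as the gap divided by the group's range. Of 50 such groups 4 passed Dixon's 95% critical value, where chance gives about 5% of groups. Vwf on PVN array 3 read 467 against 75.5 on the next array, a gap of 0.948 of the range. Slco1a4 on the same array read 741 against 431, a gap of 0.875. Slco1c1 on SON array 4 read 381 against 305, a gap of 0.848. Pecam1 on WKY RVLM array 2 was the lowest, at 15.5 against 26.8, a gap of 0.813. Both PVN readings come from the array whose mural, meningeal and oligodendrocyte sums were also highest in the PVN.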

How the results depend on the processing

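Over the 10 genes and 7 comparisons, 1153 of 1215 alternative values kept their direction and their side of the threshold, 34 lost a call, 28 gained one and 0 reversed. In the fit of the 2 groups alone, PVN minus SON called 1 of the 10 genes and 849 of all genes in place of 2 and 1710, and RVLM minus PVN called 1 of the 10 in place of 4; that fit holds fewer arrays. Leaving out 1 array at a time gave 1005 (without SON array 3) to 2437 (without PVN array 3) genes for PVN minus SON and 2 to 5 of the 10 genes for RVLM minus PVN, with 2 without PVN array 4, RVLM array 2 or RVLM array 5. Every other count of the 10 genes or of all genes called stayed within 1.5 times its value, and 0 of the 10 genes were called between strains in each of the 18 alternatives.

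Counts of the vascular lists in 1 direction were less stable in the NIL comparisons. With the filter at the 60th percentile, which tests fewer genes, the higher count of permeable endothelium went from 8 to 5 against PVN and from 7 to 4 against RVLM, that of general endothelium from 9 to 4 and from 8 to 2, and that of the Wnt list from 2 to 1 and of the mural list from 3 to 1 against RVLM. With the same filter the lower count of general endothelium went from 5 to 3 against RVLM, that of the VEGF list from 6 to 3 against SON and RVLM, and that of the mural list from 2 to 1, 4 to 1 and 5 to 3 against PVN, SON and RVLM. With no filter, which tests more genes, the lower count of permeable endothelium went from 5 to 8 against RVLM and the higher count of the Wnt list from 1 to 3 against SON. The higher count of the VEGF list against PVN went from 3 to 5 with quantile normalization, values as deposited or a pseudocount of 16, and to 7 without PVN array 3. With a pseudocount of 16 the higher count of the Wnt list against SON was 2, and in the fit of the 2 groups alone it was 3 and that of the mural list 2 in place of 1. The 1 junction gene lower against PVN was not called with no filter, in the fit of the 2 groups alone or with the replicate block. The cause was not tested where none is stated.

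With the replicate number as a block, the counts of the 10 genes called in NIL minus PVN, SON and RVLM, PVN minus SON, RVLM minus PVN, RVLM minus SON and SHR minus WKY were 8, 7, 9, 2, 4, 3 and 0, and the counts of all genes 5972, 5294, 7138, 1534, 4763, 4602 and 115. The call that ended was Slco1c1 in RVLM minus SON (0.25, adjusted p = 0.0789 in limma). Deviations of same-numbered arrays correlated between -0.117 and 0.166. For PVN minus SON the range was 0.079 to 0.166, with 2 of 4 pairs above 0.1. In no comparison were all pairs above 0.1, so the numbers were not taken to pair the arrays. Pairing was not excluded by this.

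The p-values measure the spread between pools of 5 rats. Low readings, such as Abcb1a in the NIL, carry no test against background here.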
